A study of Homo sapiens with 9 samples.

Results

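HLA class II genes encode the machinery that displays peptides from endosomes and lysosomes to CD4+ T cells. The account below covers 10 of them among the 78894 gene identifiers measured: CIITA, CD74, HLA-DRA, HLA-DRB1, HLA-DPA1, HLA-DPB1, HLA-DQA1, HLA-DQB1, HLA-DMA and HLA-DMB. They were taken by symbol from the deposited tables. The family was chosen by measured TPM: HLA-DQB1 had been seen to be higher in every knockout group in these data, and the genes that work with it were added. The values of the 10 genes are therefore a description, with no test.

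The cells were CAL27, an established tongue squamous carcinoma line, grown in DMEM with 10% FBS, and the study concerns an enhancer thought to act in head and neck cancer. By the labels, 3 samples are Control and the CRISPR-edited groups A2ko, A8ko and C9ko have 2 samples apiece, all untreated. They do not name the edited sequence, do not say what the Control cells carried, and do not say whether a knockout group is 1 clone or a pool. The paired files of A2ko were identical, as were those of A8ko, and the column name inside both files of a pair was that of the replicate B library, so each pair counted as 1 library. This left 7 distinct libraries, with replicates only in Control and C9ko, and nothing in the labels says that these replicates came from separate cultures.

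In background terms, a class II molecule is a pair of an alpha and a beta chain, made in the DR, DP and DQ forms. CD74, the invariant chain, fills the groove of a new class II molecule and guides it to endosomes, where HLA-DM (HLA-DMA with HLA-DMB) exchanges the remaining fragment for peptide. The coactivator CIITA does not bind DNA itself. It is recruited by the RFX complex, CREB and NF-Y at the X and Y boxes of class II promoters. Antigen-presenting cells make these genes constitutively, and epithelial cells can make them after exposure to interferon-gamma.

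The Control cells expressed the class II genes at very different listed levels, and TPM, which is scaled by transcript length, was used to order them. HLA genes vary between people and resemble one another, which length scaling does not address, so the order is approximate. CD74 led in Control at 247 ± 6.58 TPM (SD, n = 3), followed by HLA-DRA at 31.0 ± 2.42, HLA-DMA at 22.1 ± 3.24 and HLA-DRB1 at 11.6 ± 0.581 TPM. HLA-DPA1 was at 8.44 ± 0.171, HLA-DMB at 7.48 ± 0.593 and CIITA at 6.84 ± 0.406 TPM. The lowest were HLA-DQB1 at 2.68 ± 0.365, HLA-DQA1 at 0.988 ± 0.458 and HLA-DPB1 at 0.381 ± 0.0659 TPM. Of neighbours in this order, only HLA-DMB and CIITA had overlapping Control ranges. All 10 genes were among the 17100 tested genes, which needed 1 TPM in at least 2 distinct libraries. HLA-DPB1 reached 1 TPM in no Control library and HLA-DQA1 in 1 of 3, so these 2 passed through the groups where they were high.

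In A8ko and in both C9ko libraries, all 10 genes lay above every Control library. In A2ko, 5 genes lay above every Control library (HLA-DQB1, HLA-DMB, HLA-DMA, HLA-DPB1 and CD74, of which CD74 turned to -0.06 log2 units with median-of-ratios scaling), 4 lay below (CIITA, HLA-DQA1, HLA-DRA and HLA-DPA1) and HLA-DRB1 lay within the Control range. Both C9ko libraries were above A8ko for 8 of the 10, the exceptions being HLA-DQB1 and HLA-DMA. These positions set no size of difference and were not counted over all tested genes, so nothing is read from the numbers of genes.

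**Figure D1:**
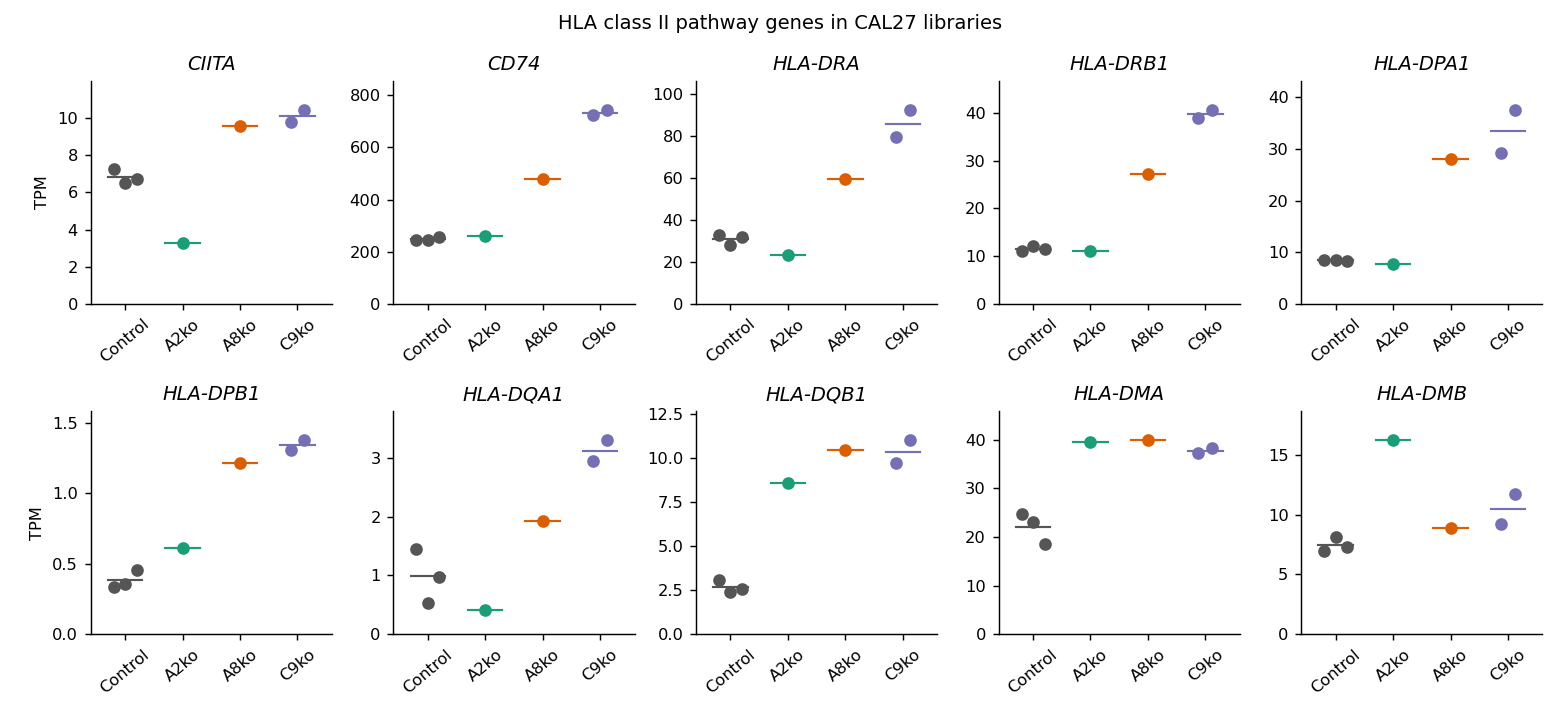
TPM of each class II gene (vertical axes, linear from 0) in the 3 Control, 1 A2ko, 1 A8ko and 2 C9ko distinct libraries, 1 point per library, with a line at the group mean. A8ko and C9ko are above Control in all 10 panels, whereas A2ko is clearly higher for HLA-DQB1, HLA-DMA and HLA-DMB and lower for CIITA.

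CIITA, the coactivator (ENSG00000179583, chromosome 16, 10866222 to 10943021 on GRCh38 in GENCODE 29, as for all positions of genes here, protein coding), had 7.29, 6.50 and 6.72 TPM in Control, 3.28 in A2ko, 9.58 in A8ko, then 9.79 and 10.4 in C9ko. The A2ko library was below every Control library and the other knockout libraries were above. In bulk RNA, fewer cells with a transcript and less of it per cell cannot be told apart. On the log2(TPM + 1) scale A2ko differed from Control by -0.87, A8ko by 0.43 and C9ko by 0.50. As linear ratios of TPM these were 0.480, 1.40 and 1.48. The gene overlaps DEXI on the other strand, which had 6.23 to 8.10 TPM in Control, 7.04 in A2ko, 7.80 in A8ko, then 13.7 and 8.78 in C9ko. Library preparation marked the strand, but whether counting used it is not given in the sources used here.

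CD74, the invariant chain (ENSG00000019582, chromosome 5, 150401637 to 150412929, protein coding), had 243, 244 and 255 TPM in Control, 259 in A2ko, 477 in A8ko, then 724 and 743 in C9ko. A2ko stood 0.07 log2 units above the Control mean, a difference that became -0.06 with median-of-ratios scaling. A8ko stood 0.95 and C9ko 1.56 above it, or 1.93 and 2.96 times the Control level. No other gene of the annotation overlaps CD74.

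The DR chains present peptide in their HLA-DRA and HLA-DRB1 pair. HLA-DRA (ENSG00000204287, chromosome 6, 32439842 to 32445046, protein coding) had 32.8, 28.2 and 31.9 TPM in Control, 23.1 in A2ko, 59.7 in A8ko, then 79.6 and 92.5 in C9ko. HLA-DRB1 (ENSG00000196126, chromosome 6, 32578769 to 32589848, protein coding) had 11.0, 12.1 and 11.5 TPM in Control, 11.1 in A2ko, 27.1 in A8ko, then 39.0 and 40.5 in C9ko. Both chains were thus higher in A8ko and C9ko without overlap with Control, and only the alpha chain was lower in A2ko. The log2 differences of HLA-DRA were -0.40, 0.93 and 1.44 in A2ko, A8ko and C9ko, and those of HLA-DRB1 were -0.05, 1.17 and 1.70.

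HLA-DRB5, a near copy of HLA-DRB1 (chromosome 6, 32517343 to 32530287), had 2.70, 2.53 and 3.17 TPM in Control, 4.12 in A2ko, 7.92 in A8ko, then 9.94 and 10.6 in C9ko. HLA genes vary between people and resemble one another, so the split of reads between these copies is uncertain. Their sum was 14.4 ± 0.588 TPM over the 3 Control libraries (SD), 15.2 in A2ko, 35.1 in A8ko, then 48.9 and 51.2 in C9ko. With the copies summed, A2ko differed by 0.08 log2 units, A8ko by 1.23 and C9ko by 1.73, so the sign in A2ko depends on this choice. HLA-DRB5 was not among the members. limma, with Benjamini-Hochberg adjusted p-values over every tested gene, called it higher in C9ko by 1.57 log2 units (SE 0.11, adjusted p 0.000125), in 2 of 2 libraries.

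In Control, the DP chains had the widest ratio of alpha to beta chain. HLA-DPA1 (ENSG00000231389, chromosome 6, 33064569 to 33080775, protein coding) had 8.54, 8.54 and 8.24 TPM in Control, 7.68 in A2ko, 28.0 in A8ko, then 29.3 and 37.5 in C9ko. HLA-DPB1 (ENSG00000223865, chromosome 6, 33075926 to 33087201, protein coding) had 0.335, 0.353 and 0.457 TPM in Control, 0.613 in A2ko, 1.21 in A8ko, then 1.31 and 1.38 in C9ko. A8ko was at 3.32 times the Control level for HLA-DPA1 and 3.18 times for HLA-DPB1, and C9ko at 3.96 and 3.52 times. On the log2(TPM + 1) scale, which understates low genes, HLA-DPA1 differed by -0.12, 1.62 and 1.86 in A2ko, A8ko and C9ko, and HLA-DPB1 by 0.22, 0.68 and 0.76. With a pseudocount of 0.1 the values of HLA-DPB1 became 0.58, 1.46 and 1.59. The genes overlap each other on opposite strands, and whether counting used the strand is not given, so their ratio is uncertain. The ratio of HLA-DPA1 to HLA-DPB1 was 18.0 to 25.5 in Control, 12.5 in A2ko, 23.1 in A8ko, then 22.4 and 27.3 in C9ko.

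The DQ chains lay on opposite sides of the Control libraries in A2ko, which is 1 library. HLA-DQA1 (ENSG00000196735, chromosome 6, 32628179 to 32647062, protein coding) had 1.45, 0.538 and 0.970 TPM in Control, 0.403 in A2ko, 1.92 in A8ko, then 2.94 and 3.30 in C9ko. HLA-DQB1 (ENSG00000179344, chromosome 6, 32659467 to 32668383, protein coding) had 3.09, 2.38 and 2.58 TPM in Control, 8.59 in A2ko, 10.5 in A8ko, then 9.71 and 11.0 in C9ko. The alpha chain was therefore lowest in A2ko among the 7 libraries, while the beta chain there was above every Control library. The ratio of HLA-DQB1 to HLA-DQA1 was 2.12, 4.42 and 2.66 in Control, 21.3 in A2ko, 5.46 in A8ko, then 3.30 and 3.34 in C9ko. The A2ko ratio rests on 1 library with HLA-DQA1 at 0.403 TPM, so its size is uncertain.

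The log2 differences of HLA-DQA1 were -0.48 in A2ko, 0.58 in A8ko and 1.08 in C9ko. Those of HLA-DQB1 were 1.38, 1.64 and 1.63, the narrowest spread across knockout groups after HLA-DMA among the 10 genes. HLA-DQB1 supplied 4.57% to 5.40% of the summed TPM of the 6 peptide-binding chains in Control, 16.7% in A2ko, 8.16% in A8ko, then 6.002% and 5.92% in C9ko. It overlaps HLA-DQB1-AS1 on the other strand, which was listed at 0 in all Control and C9ko libraries and at 0.217 in A2ko and 0.259 TPM in A8ko.

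The HLA-DM pair was also higher in A2ko. HLA-DMA (ENSG00000204257, chromosome 6, 32948613 to 32969094, protein coding) had 24.8, 23.1 and 18.5 TPM in Control, 39.4 in A2ko, 39.9 in A8ko, then 37.2 and 38.3 in C9ko. HLA-DMB (ENSG00000242574, chromosome 6, 32934629 to 32941070, protein coding) had 6.97, 8.13 and 7.34 TPM in Control, 16.2 in A2ko, 8.93 in A8ko, then 9.21 and 11.8 in C9ko. HLA-DMA was nearly level across the knockouts, with log2 differences of 0.81, 0.83 and 0.75 in A2ko, A8ko and C9ko, whereas HLA-DMB was highest in A2ko, with 1.03, 0.23 and 0.43. HLA-DMA overlaps BRD2 on the other strand, and BRD2 had 68.2 to 73.0 TPM in Control, 63.9 in both A2ko and A8ko, then 77.0 and 69.3 in C9ko. HLA-DOB, a chain of the HLA-DM inhibitor HLA-DO, had 0.825 to 0.953 TPM in Control, 1.25 in A2ko, 0.918 in A8ko, then 1.37 and 1.79 in C9ko, and did not pass the limma threshold in C9ko (adjusted p 0.0631). HLA-DOA was at most 0.129 TPM in any library. HLA-DQA2 and HLA-DQB2 were listed at 0 in all 7.

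Summed by role, the 6 peptide-binding chains were at 55.0 ± 2.57 TPM over the 3 Control libraries (SD), 51.5 in A2ko, 128 in A8ko, then 162 and 186 in C9ko. The Control libraries ran from 52.2 to 57.2, with A8ko and C9ko above them and A2ko just below. With HLA-DRB5 added, A2ko was at 55.6 TPM, inside the Control range of 54.7 to 59.9, so its place depends on that choice. HLA-DMA and HLA-DMB together were at 29.6 ± 3.26 TPM over the 3 Control libraries (SD), 55.7 in A2ko, 48.8 in A8ko, then 46.4 and 50.1 in C9ko, so all knockout libraries were above Control. CD74 was 4.26 to 4.68 times the summed chains in Control, 5.04 times in A2ko, 3.72 times in A8ko, then 4.48 and 3.99 times in C9ko.

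**Figure D2:**
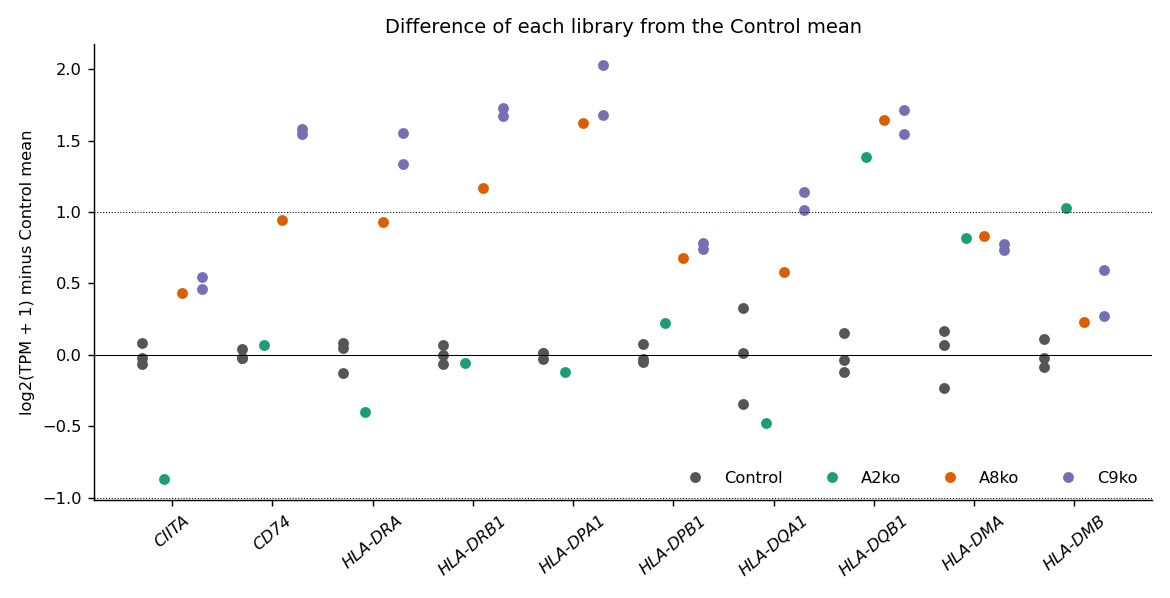
Difference of log2(TPM + 1) from the Control mean (vertical axis) for each class II gene, 1 point per distinct library, with Control libraries in grey and dotted lines 1 log2 unit from the mean. In A2ko only HLA-DQB1 and HLA-DMB pass the upper line, and in C9ko 6 genes do.

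A gene was counted as higher when all libraries of a knockout group lay above the Control range and their mean was at least 1 log2 unit above the Control mean. By this count 2 of the 10 genes were higher in A2ko (HLA-DQB1 and HLA-DMB), against 3.54% of all tested genes. In A8ko 3 were higher (HLA-DQB1, HLA-DRB1 and HLA-DPA1), against 2.05%. In C9ko 6 were higher (these 3 with HLA-DQA1, HLA-DRA and CD74), against 3.33%. No member was counted as lower, against 1.53%, 2.68% and 1.78% of tested genes in A2ko, A8ko and C9ko. HLA-DQB1 alone was higher in all 3, against 0.152% of tested genes, and the 3 genes of A8ko were higher in both A8ko and C9ko, against 1.03%. The comparisons share their Control libraries, and HLA-DQB1 led to the choice of the family, so nothing is read from these shares.

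Over the 10 genes the median log2 difference was 0.01 (A2ko), 0.88 (A8ko) and 1.26 (C9ko), beside medians of 0.12, 0.09 and 0.11 over all tested genes. Scaled by the median of ratios, the medians over all genes became 0.00, 0.00 and -0.01, and those of the 10 genes were -0.12, 0.78 and 1.16.

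The promoters of the class II genes were examined for what they share. RefSeq (GRCh38.p14) gave a window before the start of 8 of the 10 genes, those other than HLA-DRA and CIITA, and the 250 bases before the start were searched on both strands. The stretches below are those that hold the Y-box core ATTGG on the strand of the gene, or, for HLA-DMB, the X-box stretch CTGATGATG. They are shown because they set HLA-DQB1, the chain counted as higher in every knockout, beside its partner HLA-DQA1 and beside genes of both patterns. Capitals mark ATTGG and CTGATGATG, which do not overlap each other.
HLA-DQB1 (chr6:32666731-32666800, minus strand): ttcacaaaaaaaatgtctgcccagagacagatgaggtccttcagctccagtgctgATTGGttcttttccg
HLA-DQA1 (chr6:32637283-32637352, plus strand): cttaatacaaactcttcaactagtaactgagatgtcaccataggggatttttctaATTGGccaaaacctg
HLA-DRB1 (chr6:32589880-32589949, minus strand): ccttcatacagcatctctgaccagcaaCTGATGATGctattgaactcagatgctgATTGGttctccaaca
HLA-DPB1 (chr6:33075836-33075905, plus strand): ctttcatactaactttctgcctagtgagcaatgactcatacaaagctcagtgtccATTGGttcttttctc
HLA-DMA (chr6:32953162-32953231, minus strand): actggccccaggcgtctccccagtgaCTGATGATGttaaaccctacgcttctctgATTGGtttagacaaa
HLA-DMB (chr6:32941072-32941121, minus strand): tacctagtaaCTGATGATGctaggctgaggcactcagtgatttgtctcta

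The letters searched were chosen with these sequences in view. ATTGG was present on either strand in 7 of the 8 genes and on the strand of the gene in 5. Of all 35116 RefSeq windows, 32.0% held it on either strand. CTGATGATG was present in 3 of the 8, HLA-DRB1, HLA-DMA and HLA-DMB, and in 0.222% of all windows. HLA-DRB1 and HLA-DMA held both in that order on the strand of the gene, as did 0.0285% of all windows. HLA-DQB1 and HLA-DQA1 both held ATTGG, at 88 and 68 bases before the start, and neither held CTGATGATG. A match is a description of the reference sequence and not evidence of binding in CAL27 cells.

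**Figure D3:**
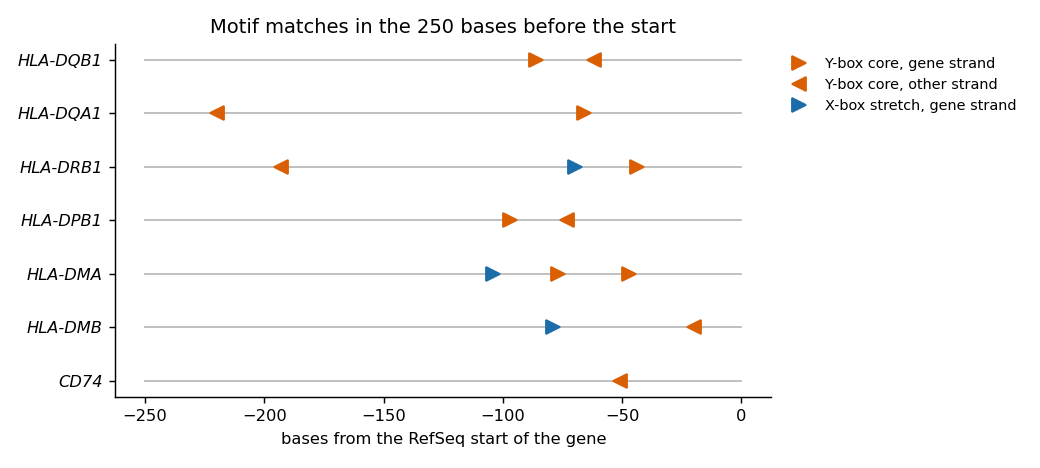
Positions of the Y-box core and of the X-box stretch in the 250 bases before the RefSeq start (horizontal axis, bases from the start) of the 7 class II genes with a match, with arrows for the strand. The Y-box core of HLA-DRB1, HLA-DMA, HLA-DPB1, HLA-DQA1 and HLA-DQB1 on the strand of the gene lies within 100 bases of the start, and the X-box stretch of HLA-DRB1 and HLA-DMA lies farther out.

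The factors that recruit CIITA included genes called in both directions. Of 7 class II transcription factors, limma called 2 higher and 1 lower in C9ko, where it called 29.5% of all tested genes, 22.0% higher and 7.42% lower. Their median log2 difference was 0.11, 0.16 and 0.10 in A2ko, A8ko and C9ko. RFX5, the DNA-binding subunit of the RFX complex, had 20.3, 19.5 and 21.2 TPM in Control, 26.6 in A2ko, 26.0 in A8ko, then 29.2 and 33.6 in C9ko, a rise of 0.60 log2 units in C9ko (SE 0.08, limma adjusted p 0.00233). NFYB, a subunit of NF-Y, averaged 18.3 TPM in Control and 31.1 in C9ko, a rise of 0.74 (SE 0.10, limma adjusted p 0.00176). NFYC fell by 0.27 (SE 0.07, limma adjusted p 0.0310), a call that ended without Control 1 (0.0749) or Control 3 (0.0815) and without either C9ko library. RFXAP and RFXANK, the remaining RFX subunits, differed by 0.10 log2 units each in C9ko (limma adjusted p 0.464 and 0.545).

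Of 18 listed genes of the interferon-gamma pathway 15 were tested, and limma called 12 higher and 1 lower in C9ko, beside 22.0% and 7.42% of all tested genes, with a median log2 difference of 0.70. In A2ko and A8ko the medians were -0.14 and -0.02, with no replicates. IFNG itself, the interferon, was listed at 0 in all 7 libraries. IRF1, which acts at a promoter of CIITA, had 123 to 132 TPM in Control, 75.7 in A2ko, 89.3 in A8ko, then 125 and 132 in C9ko, a difference of 0.02 in C9ko (limma adjusted p 0.852).

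The largest rises on this list were those of the chemokines CXCL11 and CXCL10 and of CD274, which encodes PD-L1. CXCL11 had 8.21, 6.99 and 6.27 TPM in Control, 2.78 in A2ko, 43.4 in A8ko, then 51.6 and 55.7 in C9ko, where it rose by 2.75 on the log2 scale (SE 0.11, limma adjusted p 1.93e-05). CXCL10 rose by 1.42 (SE 0.10, limma adjusted p 0.000121) and was at 8.17 TPM in A2ko and 28.6 in A8ko, against 11.2 to 13.3 in Control. As with CIITA, HLA-DRA, HLA-DPA1 and HLA-DQA1, both chemokines lay below every Control library in A2ko and above every Control library in A8ko and C9ko. How many of all tested genes do so was not counted, and other genes of the list differ. In A8ko, 2 tested genes of the list were counted as higher and 2 as lower, beside 2.05% and 2.68% of all tested genes. The lower ones were IDO1 and GBP4, the latter at 4.58 TPM against a Control mean of 11.0. GBP2 was at 36.8 TPM in A2ko, against a Control mean of 15.3. CD274 rose by 1.33 (SE 0.11, limma adjusted p 0.000307) and was at 5.27 TPM in A2ko, against a Control mean of 3.06. IDO1, an enzyme of tryptophan breakdown, was at 4.17, 3.10 and 2.43 TPM in Control, against 1.45 and 0.794 in C9ko, where it fell by 0.99 (SE 0.22, limma adjusted p 0.0157). That call ended without C9ko 2 (0.0827).

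Genes that prepare the lysosomal peptides and turn over class II molecules moved in both directions. Of 12 genes, limma called 5 higher and 1 lower in C9ko, beside 22.0% and 7.42% of all tested genes, with a median log2 difference of 0.09. CTSS, the cathepsin that trims CD74 in antigen-presenting cells, had 5.71, 6.34 and 6.55 TPM in Control, 5.38 in A2ko, 7.70 in A8ko, then 18.9 and 18.0 in C9ko, a rise of 1.44 (SE 0.09, limma adjusted p 8.43e-05). CTSF, a further cathepsin that acts on CD74, rose by 0.89 in C9ko (SE 0.09, limma adjusted p 0.000531) and was at 26.3 TPM in A2ko against 4.77 to 5.18 in Control. CTSB, a lysosomal protease, rose by 0.50 (SE 0.11, limma adjusted p 0.0172), and this call ended without C9ko 1 (0.0842) and with values scaled by the median of ratios (0.0601). CTSD, an aspartic protease, averaged 1005 TPM in Control and 815 in C9ko, where it fell by 0.30 (SE 0.08, limma adjusted p 0.0331), a call that ended without Control 1 (0.0852), Control 3 (0.0961) or C9ko 2 (0.197).

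Of 6 costimulation and adhesion genes 4 were tested, and limma called 3 higher and 0 lower in C9ko, beside 22.0% and 7.42% of all tested genes, and the same 3 and 0 at an unadjusted p under 0.05. ICAM1, the ligand of LFA-1, rose by 2.09 (SE 0.06, limma adjusted p 7.27e-06). It was the only related gene that limma called with each knockout group as 1 value (adjusted p 0.00559), where 1.03% of all tested genes were called and 0.509% were called higher, a call that ended without any 1 of the Control libraries (0.066 to 0.0789). ICOSLG, the ligand of ICOS, averaged 2.38 TPM in Control, 1.77 in A2ko and 4.59 in A8ko, and the C9ko values of 5.81 and 5.59 were a rise of 0.99 (SE 0.13, limma adjusted p 0.00203). CD58 rose by 0.34 (SE 0.08, limma adjusted p 0.0226), a call that ended without Control 2 (0.0561), Control 3 (0.0668) or C9ko 2 (0.129), with median-of-ratios scaling (0.0804) and without mitochondrially encoded genes (0.0585). CD80 and CD86, the ligands of CD28, reached 1 TPM in no library.

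Genes lying beside the class II genes in the MHC had medians near 0. Of 30 listed neighbours on chromosome 6, 25 were tested, and limma called 7 higher and 0 lower in C9ko (1 lower at an unadjusted p under 0.05), near the 22.0% called higher among all tested genes, with a median log2 difference of 0.05 and values of 0.01 and -0.08 in A2ko and A8ko. TAP1 and TAP2, which form the peptide transporter of class I presentation, rose by 0.72 (SE 0.07, limma adjusted p 0.000409) and 0.47 (SE 0.06, limma adjusted p 0.00146). AGPAT1, an enzyme of lipid synthesis, rose by 0.44 (SE 0.09, limma adjusted p 0.0110), a call that ended without C9ko 1 (0.0643). None of the 25 reached 1 log2 unit outside the Control range in any knockout group.

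**Figure D4:**
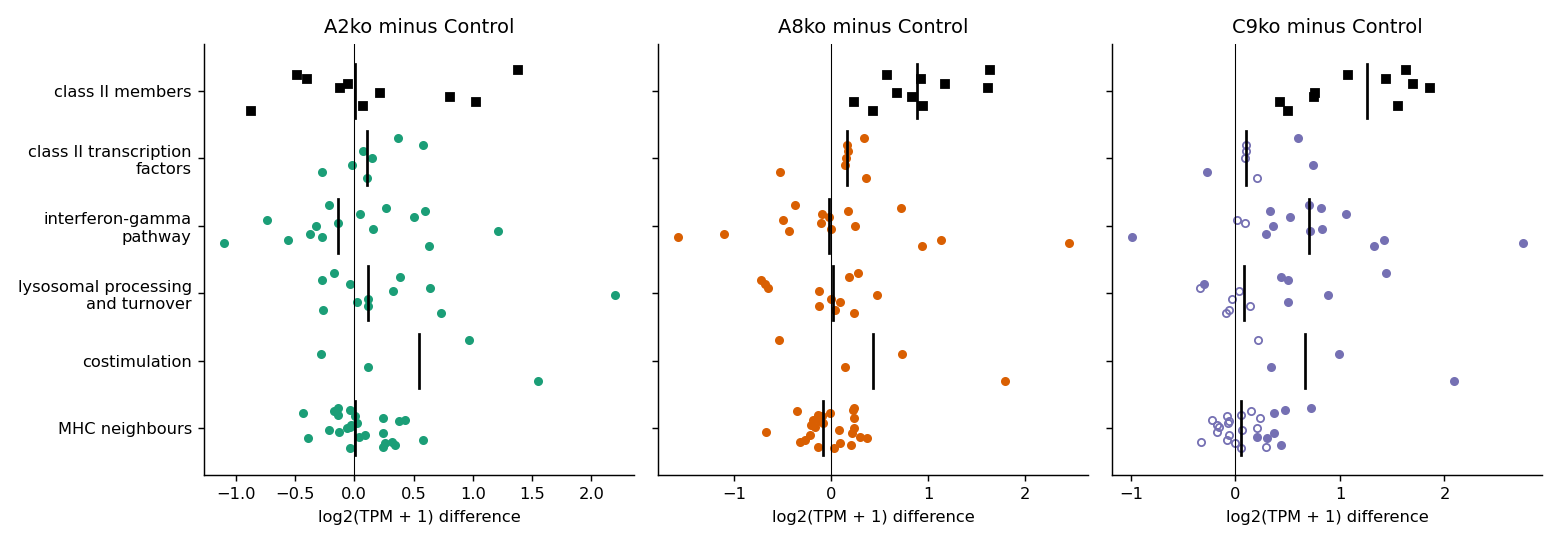
Difference of log2(TPM + 1) from Control (horizontal axes) in A2ko, A8ko and C9ko for the class II genes (black squares) and for tested genes of 5 of the 6 related lists (circles), with a bar at each median. In the C9ko panel filled circles are genes limma called. The class II median is 0.01 in A2ko and 1.26 in C9ko, and that of the MHC neighbours lies between -0.08 and 0.05. The class II genes were chosen on these same values and the neighbours were not, so nothing is read from the contrast.

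Over the related lists, with 65 tested genes, limma called 30 higher and 3 lower in C9ko, beside 22.0% and 7.42% of all tested genes, a share of 90.9% higher among called genes. With median-of-ratios scaling it called 23 higher and 5 lower, or 82.1%, and among all called genes the share of higher ones went from 74.8% to 54.6%. With no filter on low values, the calls of NFYC, IDO1, CTSB, CTSD, CD58 and AGPAT1 ended (limma adjusted p 0.0748 to 0.132).

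The genes whose profile over the 7 libraries was closest to that of HLA-DQB1 lay outside the MHC. Closeness was the mean absolute difference of log2(TPM + 1) centred on the Control mean. It was 0.104 for CPZ on chromosome 4, 0.112 for ACP7 on chromosome 19, 0.118 for TIMP2 on chromosome 17, 0.143 for FAM20C on chromosome 7 and 0.163 for ABCC3 on chromosome 17. TIMP2, an inhibitor of matrix metalloproteinases, had 20.5, 19.2 and 18.2 TPM in Control, 50.3 in A2ko, 57.3 in A8ko, then 70.3 and 73.4 in C9ko. Among the class II genes the closest to HLA-DQB1 was HLA-DPA1 at 0.324 and the farthest was CIITA at 0.837.

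Of the genes that define leukocytes, TYROBP, MS4A1 and CD1C were listed at 0 in all 7 libraries, and PTPRC was at most 0.0232 TPM. The 14 leukocyte and antigen-presenting cell markers summed to 42.8 to 50.9 TPM in Control, 63.8 in A2ko, 83.7 in A8ko, then 67.4 and 65.8 in C9ko, mostly from CD68 and CD14. Without these and ITGAX the sum was 0.615 to 1.44 TPM in Control, 2.46 in A2ko, 0.987 in A8ko, then 0.685 and 0.601 in C9ko. The 7 squamous epithelial markers were all tested and summed to 13968 to 15096 TPM in Control, 5711 in A2ko, 6318 in A8ko, then 8607 and 8319 in C9ko. KRT5 and KRT14 made up most of this sum. Without them it was 1703 to 1923 TPM in Control, 2317 in A2ko, 1214 in A8ko, then 1896 and 1840 in C9ko. KRT17 was the largest part of this remainder, which therefore says little of the other markers. DSG3 averaged 37.0 TPM in Control and 17.4 in C9ko, and CDH1 averaged 104 and 174. The 5 fibroblast markers summed to 10.8 to 12.2 TPM in Control, 17.7 in A2ko, 7.36 in A8ko, then 11.0 and 11.8 in C9ko. The markers' part in the class II values was not tested. Mitochondrially encoded transcripts took 23.1% to 26.9% of TPM in Control, 25.2% in A2ko, 20.6% in A8ko, then 20.2% and 17.9% in C9ko. With these removed, the class II medians were 0.02 (A2ko), 0.81 (A8ko) and 1.23 (C9ko).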

How the data were processed

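RNA sequencing of polyA RNA from CAL27 cells was deposited as TPM per Ensembl gene identifier, computed by the authors. Libraries were made by the dUTP method, which marks strand, from TRIzol RNA, per the labels' protocols. The build was hg38, per the submitters' processing notes. The aligner, quantification tool and annotation are not given in the sources used here. TPM keeps no record of depth, so library depth is unknown and counting error is not estimated.

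Of 78894 Ensembl identifiers, 61463 were matched to a symbol, and positions came from GENCODE release 29 on GRCh38. Values were analysed as log2(TPM + 1). Genes with at least 1 TPM in at least 2 distinct libraries were tested (17100). limma 3.58.1 in R 4.3.3 was fitted to all genes (eBayes with trend, Benjamini-Hochberg, called under 0.05), for C9ko against Control within all 4 groups, and for 3 knockout group values against 3 Control libraries. Both fits were run on simulated data in which 200 genes were raised by the same amount in every knockout. The simulation had no spread between knockout groups, unlike these data, so nothing is drawn from it here. A2ko and A8ko have no replicates and no test. p-values measure the spread between these samples, which may be technical.

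The members and lists were chosen with earlier results of these data known. The genes named are the 10 members, up to 3 called genes per related list and direction, a fixed set of regulators and other class II genes, and the 5 genes most like HLA-DQB1. IFNG, GBP2, GBP4, CD80, CD86 and the cell type markers are named outside this rule, chosen after their values were seen. A gene of the fixed set is not reported here. The alternatives tried were a pseudocount of 0.1, other scalings and filters, leaving out libraries or groups, a replicate block, counting all 9 files and, chosen after seeing the data, HLA-DRB1 and HLA-DRB5 summed, the chain sum with HLA-DRB5, and the squamous marker sum without KRT5 and KRT14.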

Additional observations from a re-analysis of the deposited data

Results flagged for a closer look

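For 4 of the class II genes, the knockout groups lay on opposite sides of all Control libraries, A2ko below and A8ko and both C9ko libraries above. The gap between the highest and the lowest knockout was 1.98 log2 units for HLA-DPA1, 1.84 for HLA-DRA, 1.56 for HLA-DQA1 and 1.37 for CIITA. In the same order, A2ko differed from the Control mean by -0.12, -0.40, -0.48 and -0.87, and none was counted as lower. HLA-DQA1 was at 0.403 TPM in A2ko, against 0.538 TPM in the lowest Control library. How many of all tested genes lay on opposite sides in this way was not counted. The difference between the knockout groups was not tested, because neither A2ko nor A8ko has a second distinct library.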

How the results depend on the processing

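The count of members higher in A8ko (3) and in C9ko (6), and those limma called in C9ko (10) with the related genes called there (33), stayed within 1.5 times under every alternative run. Ranges without 1 library were 3 to 3, 5 to 6, 7 to 9 and 24 to 28. The count in A2ko (2) became 4 with a pseudocount of 0.1 and 1 with median-of-ratios scaling, and was 1 to 2 without 1 Control library. The member count over all 3 knockouts (1) ranged from 1 to 3 when a library or group was left out, with 3 without A2ko. The limma count of members with each knockout group as 1 value (2) was 1 with median-of-ratios scaling, 1 without mitochondrially encoded genes and 1 with no filter, and 0 to 8 when a library or group was left out. The related genes called in that fit (1) ranged from 0 to 10. Where limma called 0, without 1 Control library, 2 members and 8 to 9 related genes had an unadjusted p under 0.05. Of 257 single-member values, 215 moved by less than the Control SD, 42 by more and 0 counted values changed sign. The 215 include the values under other filters, which could not move because a filter leaves log2(TPM + 1) as it is. Values not counted did change sign in A2ko. CD74 went from 0.07 to -0.06 with median-of-ratios scaling, and HLA-DRB1 from -0.05 to 0.08 when summed with HLA-DRB5. In the main fits limma called 29.5% of all tested genes in C9ko and 1.03% with each knockout group as 1 value. No such share was counted at an unadjusted p. The limma counts of members are no test, since these genes were chosen on the same values, and are listed only to show their spread. The cause was not tested.

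Replicate numbers are shared by Control and C9ko, but nothing in the labels pairs them, and the deviations of same-numbered libraries correlated across genes at -0.053 and -0.012. With the replicate block, limma called 9 members and 24 related genes in C9ko, and the calls of NFYC (0.141), CTSD (0.172) and CD58 (0.131) ended. No paired analysis was possible for A2ko and A8ko because each has 1 distinct library. Without 1 C9ko library the remaining one is assumed to vary like Control.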

Other observations

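CD14 and CD68, which are best known from monocytes and macrophages, were the only 2 leukocyte markers that passed the filter. CD14, a receptor for lipopolysaccharide, had 14.2 to 17.9 TPM in Control, with 23.2 in A2ko, 16.3 in A8ko, then 52.5 and 50.8 in C9ko, a rise of 1.66 log2 units in C9ko (SE 0.10, limma adjusted p 8.38e-05). CD68, a lysosomal membrane protein, had 27.8 to 32.2 TPM in Control, with 35.4 in A2ko, 66.3 in A8ko, then 14.1 and 14.3 in C9ko, where it fell by 1.01 (SE 0.08, limma adjusted p 0.000206). A8ko and C9ko thus lay on opposite sides of Control for CD68. That difference between the knockouts was not tested.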
